A study of Mus musculus with 2 samples.

Results

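S100a8 and S100a9 encode the 2 subunits of calprotectin, and both were read from the 2 matrix rows, of 55357 gene rows in all, that carry these symbols. The lungs came from female Balb/C mice with orthotopic tumours of K7M2, a mouse osteosarcoma line that spreads to the lung. One group received 1V209-Cho-Lip, named in the series title as a TLR7 agonist nanomedicine, and the other received PBS. The lungs of 3 mice were pooled for each group and profiled with the 10x Genomics single-cell platform, giving 1 library per group. With 1 library per group there is no replicate and no test: treatment and library cannot be told apart for any difference given here. The intervals below are 95% intervals that cover counting error only. No dose, schedule or sampling time is given in the sources used here.

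The S100A8 and S100A9 proteins bind calcium and pair into a heterodimer that makes up a large part of the neutrophil cytosol. The heterodimer withholds zinc and manganese from microbes, and once released it acts on receptors such as TLR4 and RAGE. Monocytes also make both subunits, and lymphocytes and endothelial cells are not known as major sources at rest. In droplet data, RNA set free from broken cells enters every droplet, so an abundant neutrophil transcript is counted in other cells too. Producing cells were therefore set apart from that free-RNA level in each library.

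After filters and removal of called doublets, 12328 cells of the 1V209-Cho-Lip library and 12642 cells of the PBS library were kept, with 46476852 and 45586276 unique molecular identifiers (UMIs), and 268 barcode sequences occurred in both deposited barcode lists. Cells were typed one by one from 24 marker lists, none of which holds S100a8 or S100a9. A cell entered a gate with UMIs of at least 3 of its markers and at least 2 times the share of markers of any other lineage. The neutrophil gate held 4617 and 1609 cells, or 37.5% of kept cells after 1V209-Cho-Lip and 12.7% after PBS. Cells that met no gate clearly made up 11.2% and 10.2% (mixed markers) and 4.74% and 7.07% (too few markers). The gates with at least 50 cells in both libraries numbered 13. A change in the number of cells and a change in RNA per cell can be separated here only through these gates.

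S100a8 (ENSMUSG00000056054) lies on the plus strand at chr3:90668978-90670035 and S100a9 (ENSMUSG00000056071) on the minus strand at chr3:90692632-90695721, in the mm10 GENCODE vM21 annotation. The 2 genes are 22596 bases apart, and no other annotated gene overlaps either, so counts need not be shared with a neighbour. The 250 bases before each RefSeq start (GRCm38.p6) are shown because the 2 genes were counted together in nearly every neutrophil. They lie at chr3:90668821-90669070 on the plus strand for S100a8, where the longer GENCODE model already begins inside the window, and at chr3:90695722-90695971 on the minus strand for S100a9. Capitals mark exact matches to a C/EBP core (ATTGC, either strand), a PU.1 site (GAGGAAGT, either strand) or a TATA box (TATAAA, gene strand), none of which overlap.
S100a8: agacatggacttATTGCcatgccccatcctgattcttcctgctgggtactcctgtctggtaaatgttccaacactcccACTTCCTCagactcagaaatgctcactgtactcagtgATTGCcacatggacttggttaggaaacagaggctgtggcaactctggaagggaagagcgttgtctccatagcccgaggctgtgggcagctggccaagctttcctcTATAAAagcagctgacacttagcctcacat
S100a9: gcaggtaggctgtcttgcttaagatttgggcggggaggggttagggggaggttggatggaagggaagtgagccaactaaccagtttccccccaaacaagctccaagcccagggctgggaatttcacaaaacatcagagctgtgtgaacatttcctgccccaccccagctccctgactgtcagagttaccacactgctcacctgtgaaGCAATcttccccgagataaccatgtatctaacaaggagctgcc
The S100a8 window holds ATTGC beginning 238 and 135 bases before the start, ACTTCCTC beginning 172 bases before it and TATAAA beginning 30 bases before it. The S100a9 window holds GCAAT beginning 43 bases before the start, and neither of the other sets of letters. Of 32851 mouse promoter windows of this length, 23.1% hold the C/EBP letters, 2.44% the PU.1 letters and 7.59% the TATA box, so a match is a description of the letters and not a bound site.

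In the whole library both subunits were far more abundant after 1V209-Cho-Lip. S100a8 had 664447 UMIs in the 1V209-Cho-Lip library and 87467 in the PBS library, or 14296 and 1919 CPM (UMIs of the gene per total UMIs, on a common scale), a ratio of 7.45 (7.40 to 7.50). S100a9 had 1058501 and 163503 UMIs, or 22775 and 3587 CPM, for a ratio of 6.35 (6.32 to 6.38). Both members were thus at least 1.5-fold higher, the size used for all such counts, beside 13.6% of the 20415 genes measured with at least 20 UMIs; 19.5% were at least 1.5-fold lower, and the median gene stood at -0.20 on the log2 scale. Averaging each cell's own CPM, which gives shallow and deep cells equal weight, moved the ratios to 4.56 for S100a8 and 3.92 for S100a9.

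Neutrophil-gated cells held nearly all of this RNA. They carried 92.5% of S100a8 UMIs in the 1V209-Cho-Lip library and 89.8% in the PBS library, and 92.6% and 91.0% of S100a9 UMIs. Most of the remainder, 6.43% and 8.53% of S100a8 UMIs, lay in cells with markers of more than one lineage. With called doublets kept, the neutrophil share of S100a8 was 81.6% and 73.4%. Classical monocytes held 0.185% of S100a8 UMIs in the 1V209-Cho-Lip library and 0.107% in the PBS library.

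The whole-library difference had 2 components inside the neutrophil gate. The 1V209-Cho-Lip library held 2.87 times as many gated neutrophils as the PBS library, and each carried 2.73 times (2.71 to 2.75) as many S100a8 UMIs and 2.29 times (2.28 to 2.31) as many S100a9 UMIs. S100a8 averaged 133.1 UMIs per neutrophil in the 1V209-Cho-Lip library and 48.8 in the PBS library. S100a9 averaged 212.3 and 92.5 UMIs per neutrophil. Total UMIs per neutrophil were also 1.68 times as many after 1V209-Cho-Lip, with medians of 2289 and 1395. Greater depth was not particular to neutrophils: the median was higher after 1V209-Cho-Lip in 11 of the 12 other gates, up to 5286 and 3056 UMIs in interstitial macrophages, while AT1 cells, an alveolar epithelial type, had 3219 and 3443. Whether that higher total reflects RNA content or capture was not tested.

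**Figure D1:**
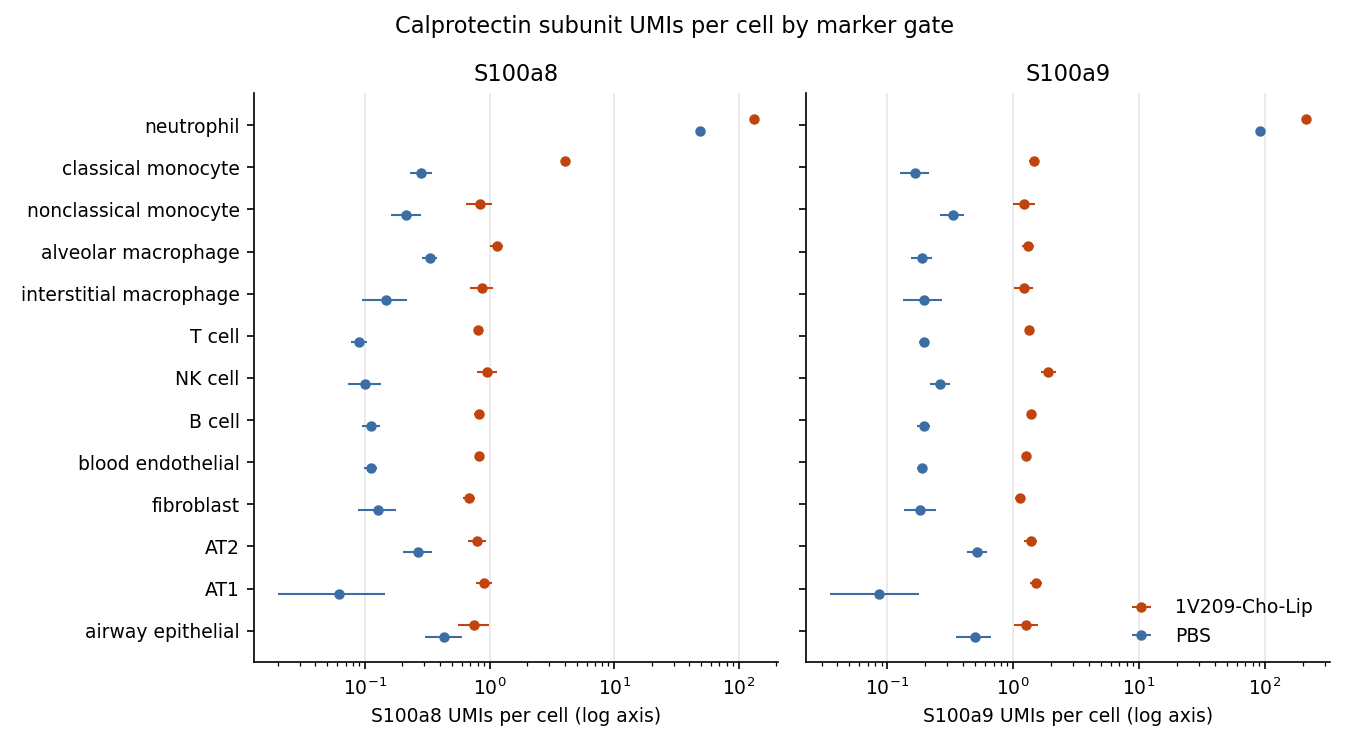
UMIs per cell of S100a8 (left) and S100a9 (right) in each marker gate with at least 50 cells in both libraries, on a log axis, with 95% Poisson intervals, 1V209-Cho-Lip above PBS. Neutrophils stand at 133.1 and 48.8 S100a8 UMIs per cell after 1V209-Cho-Lip and PBS, and of the other gates the highest is the classical monocyte at 4.02 in the 1V209-Cho-Lip library.

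Relative to all RNA of the gate, the neutrophil difference was smaller. S100a8 stood at 52048 CPM in 1V209-Cho-Lip neutrophils and 32013 CPM in PBS neutrophils, a ratio of 1.63 (1.61 to 1.64). S100a9 stood at 82978 and 60635 CPM, for a ratio of 1.37 (1.36 to 1.38), below 1.5-fold. One of the 2 members thus passed that size, beside 12.7% of the 10966 genes measured in neutrophils; 19.1% were at least 1.5-fold lower and the median gene stood at -0.12 on the log2 scale. Scaling by TMM or by the median of ratios put the ratios at 1.91 and 1.93 for S100a8 and 1.61 and 1.62 for S100a9, so that S100a9 passed 1.5-fold under both. Thinning every cell to 1000 UMIs gave 1.49 for S100a8, 46.2 and 31.03 UMIs per thinned cell after 1V209-Cho-Lip and PBS, and 1.30 for S100a9.

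The share that S100a8 took of a neutrophil's RNA depended on how many UMIs the cell had. Among cells with 500 to 1000 UMIs, S100a8 took 1.90% of UMIs in the 1V209-Cho-Lip library and 1.99% in the PBS library, a ratio of 0.954 (0.903 to 1.01). Among cells with 1000 to 2000 UMIs it took 3.003% and 2.93%, a ratio of 1.03 (1.01 to 1.04). At 2000 to 4000 UMIs the libraries stood further apart, at 5.44% and 4.22%, a ratio of 1.29 (1.27 to 1.31).

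S100a9 followed the same course, with ratios of 0.938 (0.905 to 0.973), 1.06 (1.05 to 1.07) and 1.24 (1.23 to 1.25) in those bins. At 4000 to 8000 UMIs the PBS library held only 15 neutrophils, and the ratio was 0.986 (0.960 to 1.01) for S100a8 and 1.10 (1.07 to 1.12) for S100a9. Below 8000 UMIs the ratio in each bin therefore lay below that of the gate as a whole. At 8000 UMIs and over, S100a8 took 8.58% of UMIs in 40 cells of the 1V209-Cho-Lip library and 0.531% in 3 cells of the PBS library, and S100a9 took 8.87% and 0.850%, a far wider gap that rests on those 3 cells. The 1V209-Cho-Lip gate held 2559 cells with 2000 to 4000 UMIs and 1521 with 1000 to 2000, whereas the PBS gate held 202 and 1140. These bins were chosen after the data were seen, and the total includes the members' own UMIs.

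**Figure D2:**
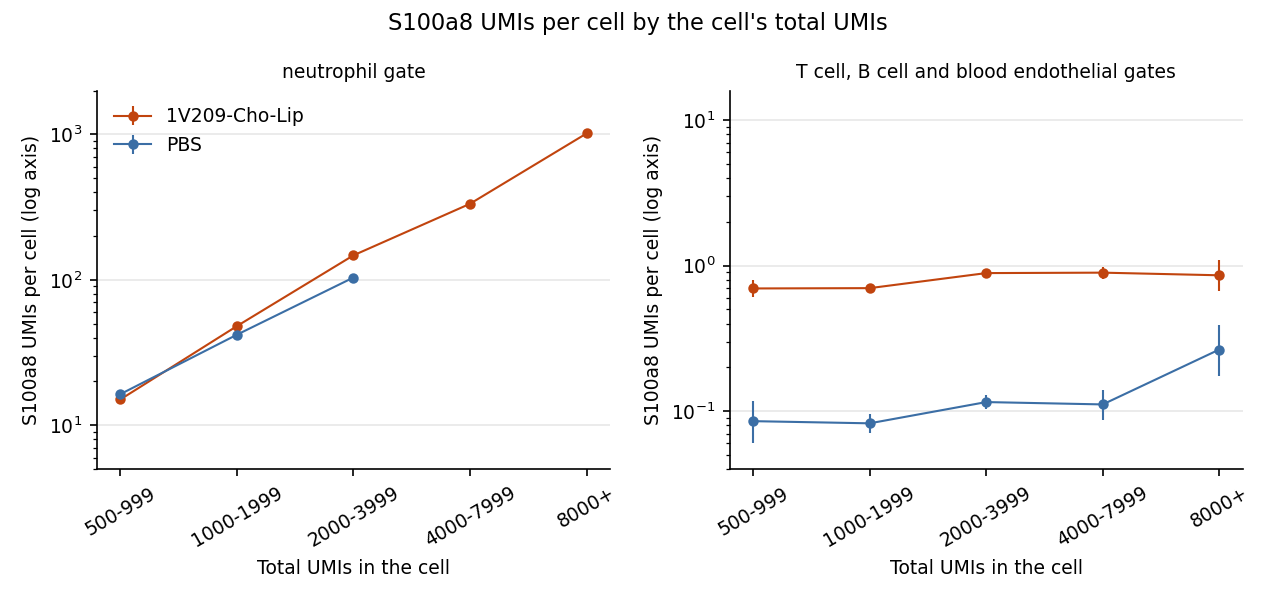
S100a8 UMIs per cell (log axis) against the cell's total UMIs, with 95% Poisson intervals, in neutrophils (left) and in the T cell, B cell and blood endothelial gates together (right); bins of under 20 cells are left out. Neutrophils climb with depth in both libraries and lie close together below 2000 UMIs, while the other gates climb far less, lying at 0.697 to 0.896 in the 1V209-Cho-Lip library and, in the PBS library, at 0.0825 to 0.115 below 8000 UMIs and at 0.265 above.

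The 2 subunits together made up 13.5% of all neutrophil UMIs in the 1V209-Cho-Lip library and 9.26% in the PBS library. By UMIs, which are not divided by length, S100a9 ranked 1 and S100a8 ranked 3 among all genes of 1V209-Cho-Lip neutrophils, against 2 and 3 in PBS neutrophils. Both RNAs were seen in 97.8% of 1V209-Cho-Lip neutrophils and 95.2% of PBS neutrophils, and neither was seen in 6 and 23 cells. Across single neutrophils the logged levels of the 2 genes followed each other, with Pearson correlations of 0.850 and 0.836. Each count was divided by the cell's own total before the log was taken.

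The spread between neutrophils was wide. S100a8 had a median of 93 UMIs in 1V209-Cho-Lip neutrophils, with the middle 50% of cells between 33 and 182 UMIs, and a median of 32 UMIs in PBS neutrophils, with the middle 50% between 13 and 66. S100a9 had medians of 185 UMIs, between 96 and 284, and 76 UMIs, between 39 and 124. The distributions overlapped, but their upper ends differed: 300 or more S100a8 UMIs were found in 9.36% of 1V209-Cho-Lip neutrophils and 0.684% of PBS neutrophils. As a share of the cell's own UMIs the S100a8 medians were 4.13% and 2.38%, and the S100a9 medians 7.91% and 5.49%.

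**Figure D3:**
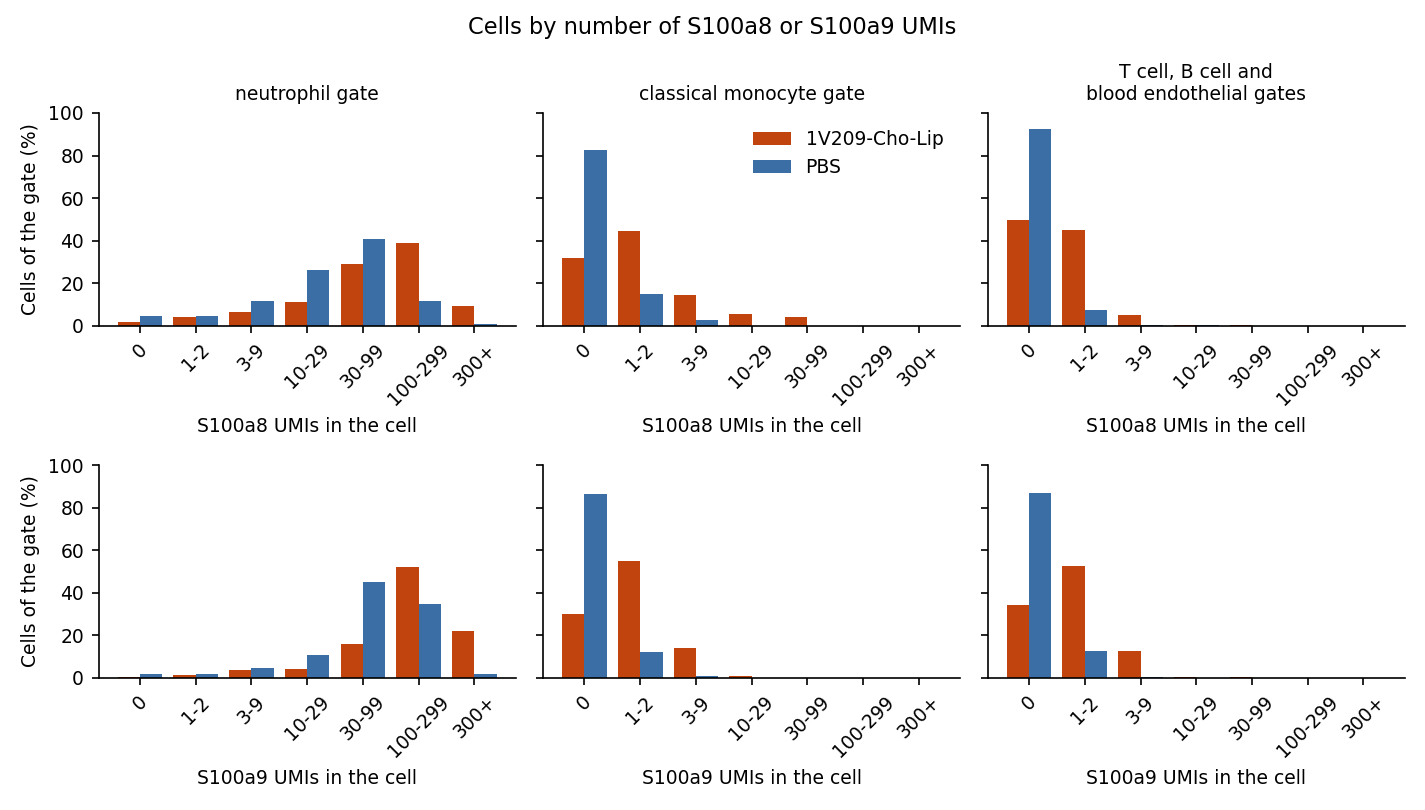
Percent of cells of a gate (vertical axis) by the number of S100a8 UMIs (top row) or S100a9 UMIs (bottom row) in the cell, for neutrophils, classical monocytes and the T cell, B cell and blood endothelial gates together. In neutrophils 1.82% of 1V209-Cho-Lip cells and 4.60% of PBS cells had no S100a8 UMI, whereas in the T cell, B cell and blood endothelial gates 49.9% and 92.5% had none.

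Neutrophil granule genes mark the younger cells of the lineage, and S100a8 was highest in cells that carried them. The marker list held Ngp, Camp and Ltf, which encode granule proteins with antimicrobial roles, with Mmp8, Cebpe, Fcnb, Itgb2l and Cd177. Cells with none of these 8 markers gave 3.50% of their UMIs to S100a8 in the 1V209-Cho-Lip library and 2.61% in the PBS library. Cells with 3 or more gave 11.03% and 11.5%. The S100a8 share thus ran higher with each further marker in both libraries, through 5.54% and 3.54% at 1 marker and 6.79% and 4.84% at 2 markers.

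Cells with granule markers were a larger part of the 1V209-Cho-Lip gate. Those with none made up 49.7% of neutrophils in the 1V209-Cho-Lip library and 72.5% in the PBS library, and those with 3 or more made up 2.84% and 1.06%, which is 131 and 17 cells. Detecting a marker also depends on depth: the median UMIs per cell were 1971 and 1327 with no marker and 4811 and 4201 with 3 or more. The part of depth in this pattern was not tested.

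**Figure D4:**
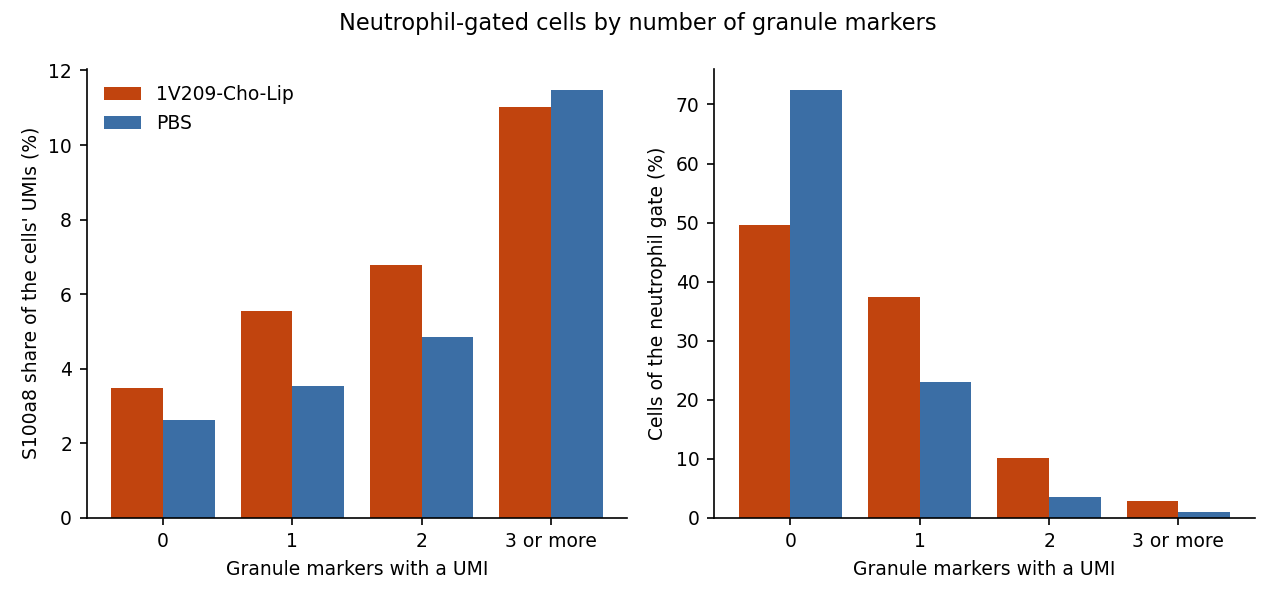
Left, percent of UMIs given to S100a8 in neutrophils with 0, 1, 2 and 3 or more of the 8 granule markers; right, percent of the neutrophil gate in each of these sets, 1V209-Cho-Lip left of PBS. The S100a8 share runs from 3.50% to 11.03% in the 1V209-Cho-Lip library and from 2.61% to 11.5% in the PBS library, while cells with no marker make up 49.7% and 72.5% of the gate.

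When neutrophils were put in order of their S100a8 share and divided into 4 equal sets, other genes moved along it. Retnlg, a resistin-like gene of neutrophils, stood at 867, 2481, 5088 and 11519 CPM from the lowest to the highest set in the 1V209-Cho-Lip library and at 861, 1797, 4568 and 11288 CPM in the PBS library. Lcn2, which encodes a siderophore-binding granule protein, stood at 754 CPM in the lowest and 4014 CPM in the highest set in the 1V209-Cho-Lip library, and at 280 and 2145 CPM in the PBS library. Both genes were thus many times higher in the S100a8-rich cells of each library.

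Ngp was concentrated in the highest set, at 3839 CPM in the 1V209-Cho-Lip library and 2326 CPM in the PBS library, against 90.0 and 16.2 CPM in the set next to it. The cytokine gene Il1b ran the other way at the top, with 15830 CPM in the highest and 23338 CPM in the lowest set of the 1V209-Cho-Lip library, and 19155 and 22722 CPM in the PBS library. Il1r2, the decoy interleukin-1 receptor gene, was also lower in S100a8-rich cells, at 2577 CPM in the highest and 4438 CPM in the lowest set of the 1V209-Cho-Lip library, and at 3750 and 5332 CPM in the PBS library. These genes were chosen after their values were seen, and a larger S100a8 share leaves less of the total to other genes.

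The ratio of S100a8 to S100a9 UMIs also differed within the gate. It is compared between cells only, since UMI counts do not place one gene's level over another's. It was 0.627 (0.625 to 0.629) in 1V209-Cho-Lip neutrophils and 0.528 (0.523 to 0.533) in PBS neutrophils. It stood at 0.519 and 0.485 in neutrophils with no granule marker and at 0.903 and 0.784 in those with 3 or more. S100a8 therefore varied more than S100a9 along this set of cells in both libraries.

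Outside neutrophils, both RNAs sat at a low level that differed between libraries. The T cell, B cell and blood endothelial gates were taken as the measure of free RNA. By the gating rule, such cells with too large a share of neutrophil markers went to the mixed set and are not in this measure. S100a8 averaged 0.817 UMIs per cell there in the 1V209-Cho-Lip library (0.789 to 0.847) and 0.104 in the PBS library (0.0958 to 0.112), a ratio of 7.88 (7.23 to 8.60). S100a9 averaged 1.31 and 0.192 UMIs per cell, a ratio of 6.83 (6.41 to 7.29). The ratios lay near those of the whole library, and neutrophils stood 163 and 471 times above this level in S100a8 UMIs per cell after 1V209-Cho-Lip and PBS. The level depends on how cells were typed. With cell types from clusters, S100a8 averaged 2.68 UMIs per cell in the 1V209-Cho-Lip library and 0.175 in the PBS library, a wider gap between libraries.

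A UMI of S100a8 was present in 50.1% of these cells in the 1V209-Cho-Lip library (48.5% to 51.8%) and in 7.54% in the PBS library (6.89% to 8.24%), at median depths of 2362 and 2190 UMIs. S100a9 was present in 65.9% and 13.1%. A share of cells with a UMI at or below these is read as background here. Per droplet the level climbed far less with depth than in neutrophils: from cells with 500 to 1000 UMIs to cells with 4000 to 8000, S100a8 averaged 0.697, 0.701, 0.889 and 0.896 UMIs in the 1V209-Cho-Lip library and 0.0854, 0.0825, 0.115 and 0.111 in the PBS library. At 8000 UMIs and over it averaged 0.859 and 0.265. S100a9 averaged 1.04 UMIs at 500 to 1000, 1.40 at 2000 to 4000 and 2.08 at 8000 and over in the 1V209-Cho-Lip library, and 0.200, 0.198 and 0.459 in the PBS library.

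The composition of these low counts was close to that of neutrophils in some genes and not in others. The S100a8 to S100a9 ratio was 0.624 (0.596 to 0.653) in the 3 gates of the 1V209-Cho-Lip library and 0.541 (0.490 to 0.596) in those of the PBS library, and both intervals hold the neutrophil value of their own library. Per 100 S100a8 UMIs, Retnlg had 10.8 in 1V209-Cho-Lip neutrophils and 10.8, 10.0 and 10.6 in the T cell, B cell and blood endothelial gates. G0s2 had 13.5 in neutrophils and 15.9, 13.7 and 13.8 in those gates. In the PBS library Retnlg had 15.5 in neutrophils and 24.7 (17.7 to 34.0), 13.5 and 14.5 in the same gates, and G0s2 had 26.2 and 36.9 (27.8 to 48.5), 23.7 and 26.4, so that T cells stood above neutrophils for both genes. Other neutrophil genes were richer there than in neutrophils, such as Il1r2 with 6.55 in neutrophils and 13.7, 13.5 and 9.30 in the 3 gates of the 1V209-Cho-Lip library. In that library Csf3r had 3.11 in neutrophils and 6.19, 6.84 and 5.31 in the gates. Hdc had 5.41 and 7.99, 9.18 and 10.9. Slpi had 0.558 and 6.06, 8.98 and 5.04, but it is not particular to neutrophils. It had 783 in alveolar macrophages and 38.2 in classical monocytes of that library, and the origin of its counts in the 3 gates was not tested. Camp had 1.03 in neutrophils and lay lower in blood endothelial cells, at 0.332 (0.122 to 0.724), from 6 UMIs. Its T cell and B cell values, 0.902 (0.361 to 1.87) and 0.391 (0.0472 to 1.42), rest on 7 and 2 UMIs. Both of those intervals hold the neutrophil value.

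A few of these cells held far more. At least 10 S100a8 UMIs were found in 13 cells (0.343%) in the 1V209-Cho-Lip library and 5 cells (0.0823%) in the PBS library, and these held 8.63% and 17.1% of the gates' S100a8 UMIs. Without them the S100a8 ratio between libraries was 8.71. Of these cells, 61.5% and 40.0% carried a UMI of a neutrophil marker, compared with 35.4% and 10.1% of the rest.

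Across the 12 gates other than neutrophils, S100a8 ranged from 0.683 to 4.02 UMIs per cell in the 1V209-Cho-Lip library and from 0.0617 to 0.432 in the PBS library. S100a9 ranged from 1.13 to 1.91 and from 0.0864 to 0.518. S100a8 and S100a9 were each at least 1.5-fold higher in CPM in 11 of the 12 gates. The share of all measured genes that high was 11.9% in classical and 12.7% in nonclassical monocytes, 8.3% in alveolar and 14.7% in interstitial macrophages, 12.2% in T cells, 14.1% in NK cells, 11.8% in B cells, 11.6% in blood endothelial cells, 15.1% in fibroblasts, 11.4% in AT2 and 16.1% in AT1 cells, the 2 alveolar epithelial types, and 50.2% in airway epithelial cells. Free RNA and expression cannot be told apart by these counts.

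The gate that missed that size was the airway epithelial gate, with ratios of 0.978 (0.621 to 1.56) for S100a8 and 1.45 (0.983 to 2.17) for S100a9. Its level in the PBS library, 0.432 S100a8 UMIs per cell, rested largely on 1 cell with 26 of 35 UMIs. The nonclassical monocyte and AT2 gates of the PBS library likewise held single cells with 33 of 54 and 18 of 58 S100a8 UMIs. Most S100a8 UMIs of the airway and nonclassical monocyte gates of the PBS library thus came from 1 cell each, whereas the AT2 gate held 2 cells with 10 or more. At 1000 UMIs per cell, the classical monocyte gate of the 1V209-Cho-Lip library alone had S100a8 above all 3 free-RNA gates, in 1 of 12 gates there and in 0 of 12 in the PBS library. For S100a9 no gate other than neutrophils did so in either library. Free RNA per droplet climbed little with depth, so thinning removes more of it from deep cells than from shallow ones. A deep gate that lies below the free-RNA gates after thinning may still express the gene, which this rule cannot decide.

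In classical monocytes, S100a8 averaged 4.02 UMIs per cell in the 1V209-Cho-Lip library (3.80 to 4.25; 306 cells) and 0.284 in the PBS library (0.229 to 0.348; 331 cells), or 513 and 47.5 CPM, a CPM ratio of 10.8 (8.76 to 13.5). S100a9 averaged 1.47 and 0.166 UMIs per cell, a CPM ratio of 6.74 (5.09 to 9.09). Per droplet, the S100a8 level of treated monocytes lay well above the free-RNA level while their S100a9 level lay close to it. After thinning to 1000 UMIs, S100a8 averaged 0.576 (0.494 to 0.668) in monocytes of the 1V209-Cho-Lip library, above the 0.387 (0.360 to 0.416) of blood endothelial cells, the highest free-RNA gate. In the PBS library thinned monocytes averaged 0.0334 (0.0167 to 0.0598), within the range of those gates. Thinned S100a9 lay below the free-RNA gates, at 0.191 in monocytes and 0.548 in those gates in the 1V209-Cho-Lip library, and at 0.0334 and 0.0755 in the PBS library. Monocytes were deeper, with a median of 7303 UMIs against 2362 in those gates of the 1V209-Cho-Lip library. Thinning therefore removes more of their free RNA, and the lower S100a9 value cannot decide on expression.

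The ratio of S100a8 to S100a9 UMIs set gated classical monocytes apart from neutrophils. It was 2.74 (2.46 to 3.06) in the 1V209-Cho-Lip library and 1.71 (1.21 to 2.43) in the PBS library, against 0.627 and 0.528 in neutrophils. This was not particular to monocytes in the PBS library, where alveolar macrophages stood at 1.76 (1.39 to 2.24). In the 1V209-Cho-Lip library alveolar macrophages stood at 0.863 (0.733 to 1.02). Retnlg, at 10.8 and 15.5 per 100 S100a8 UMIs in neutrophils, stood at 1.95 and 2.13 in classical monocytes. Mmp9 and Cxcr2 were likewise lower in monocytes of the 1V209-Cho-Lip library, at 0.325 and 0.894 per 100 against 1.23 and 2.14 in neutrophils. Other genes of the neutrophil list were higher per 100 S100a8 UMIs in monocytes than in neutrophils of that library, with Csf3r at 14.8 and 3.11, Il1r2 at 30.4 and 6.55 and Lcn2 at 9.59 and 4.16. Leaving out every monocyte with a Retnlg, Mmp9 or Cxcr2 UMI kept 269 and 327 cells and gave 2.87 and 1.75. This alternative was chosen after the data were seen.

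The ratio did depend on which cells were called monocytes. With cell types taken from clusters it was 0.853 (0.821 to 0.886) and 0.866 (0.735 to 1.02) after 1V209-Cho-Lip and PBS, still above neutrophils but far closer to them. Only 10 and 45 monocytes had no UMI of any neutrophil marker, and in these it was 0.556 (0.146 to 1.85) and 0.400 (0.0916 to 1.39), below the neutrophil values but with intervals that hold them. Several of those markers, such as Csf3r, Clec4d and Trem1, are known from monocytes as well.

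**Figure D5:**
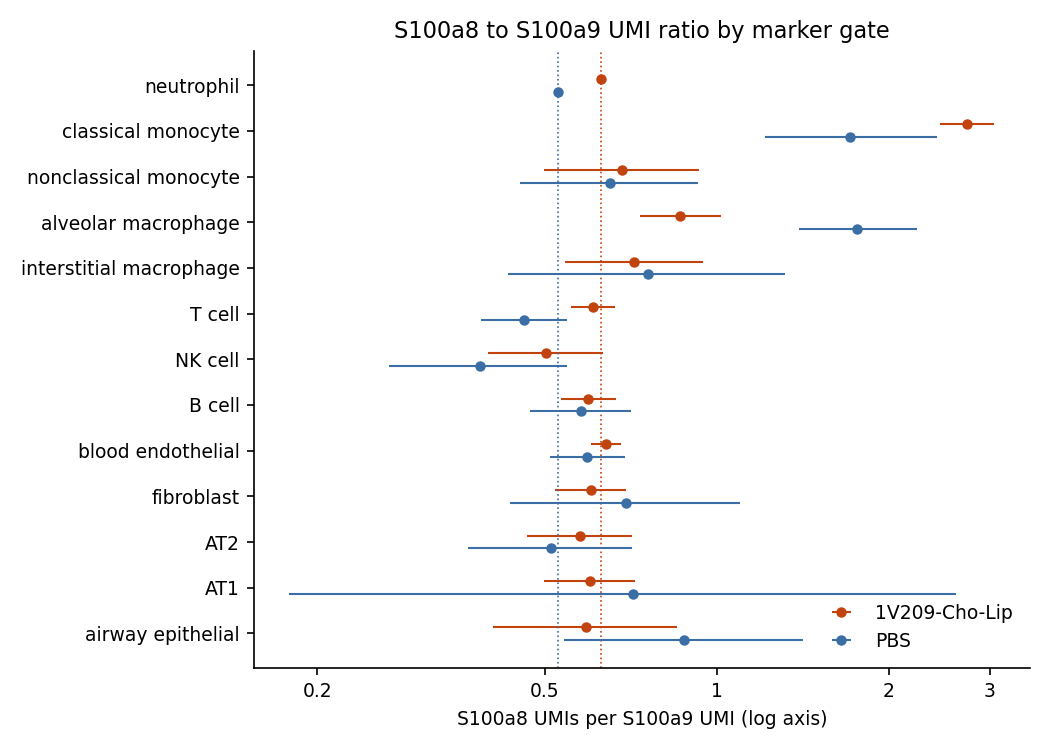
S100a8 UMIs per S100a9 UMI in each gate (log axis) with 95% intervals, 1V209-Cho-Lip above PBS; dotted lines mark the neutrophil value of each library. Most gates lie near the neutrophil lines at 0.627 and 0.528, whereas classical monocytes lie at 2.74 and 1.71 and alveolar macrophages at 0.863 and 1.76.

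S100a8 was uneven among treated monocytes. Of the 306 cells, 98 had no UMI, 136 had 1 to 2, 44 had 3 to 9 and 28 had 10 or more, up to 91, whereas in the PBS library 273 had none, 49 had 1 to 2, 9 had 3 to 9 and 0 of 331 had 10 or more, which allows a share of up to 0.906%. The 28 richest cells held 821 of the 1230 UMIs. Without them the S100a8 to S100a9 ratio of the gate in the 1V209-Cho-Lip library was 1.24 (1.07 to 1.43), and the ratio of S100a8 UMIs per cell between libraries was 5.18, against 14.2 with them.

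S100a9 averaged 1.19, 1.15, 1.32 and 4.21 UMIs per cell from the first to the last of these sets in the 1V209-Cho-Lip library. It thus stood near the free-RNA level of 1.31 except in the S100a8-rich cells. The classical monocyte markers Ly6c2 and Ccr2 were present throughout, at 1574 and 871 CPM in the richest cells and 1230 and 823 CPM in those without S100a8. Retnlg stood at 4.45 CPM in the richest cells, from 1 UMI, and at 9.28 CPM in those without S100a8, from 7 UMIs. No Mmp9 or Cxcr2 UMI was found in the richest cells, and those without S100a8 held only 1 and 4. These counts are too few to tell the sets apart.

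Some other secreted-protein genes were higher in the same cells, named here after their values were seen. Chil3, a chitinase-like gene of myeloid cells, stood at 600, 960, 1553 and 1907 CPM across the 4 sets of the 1V209-Cho-Lip library. Saa3, an acute-phase gene, stood at 135, 266, 622 and 1022 CPM. Lcn2 stood at 21.2, 31.8, 43.2 and 236 CPM, and Wfdc21 at 10.6, 9.34, 74.9 and 360 CPM. In the PBS library Chil3 stood at 184, 311 and 228 CPM in its 3 filled sets, with no such order. The secreted cytokine gene Il1b was instead lower in the S100a8-rich cells of the 1V209-Cho-Lip library, at 2920, 2900, 2541 and 2347 CPM across the 4 sets. In the PBS library Il1b stood at 2169, 2873 and 3041 CPM.

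Alveolar macrophages, which are among the deepest cells, had S100a8 at 1.14 UMIs per cell in the 1V209-Cho-Lip library (1.01 to 1.28; 244 cells) and 0.332 in the PBS library (0.287 to 0.381; 600 cells). A UMI was present in 61.5% and 24.8% of them, at median depths of 8067 and 6523 UMIs, against 50.1% and 7.54% in the free-RNA gates. Per cell these levels were above all 3 free-RNA gates in both libraries, but after thinning to 1000 UMIs they were not, at 0.201 and 0.0387. Thinning removes more free RNA from cells this deep than from the free-RNA gates, so it cannot decide on expression here. The S100a8 to S100a9 ratio was 0.863 (0.733 to 1.02) in the 1V209-Cho-Lip library and 1.76 (1.39 to 2.24) in the PBS library. With cell types from clusters it was 0.650 and 0.780, and in PBS macrophages with no neutrophil marker UMI it was 1.17 (0.779 to 1.75). S100a9 averaged 1.32 and 0.188 UMIs per cell, close to the free-RNA level of each library.

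The other S100 genes, relatives with the same calcium-binding fold, were mostly closer between libraries in neutrophils than S100a8. Of 17 S100 genes in the files, 10 had at least 20 UMIs in neutrophils; 1 of them, S100a8, was at least 1.5-fold higher and 2 were at least 1.5-fold lower, beside 12.7% and 19.1% of all genes measured there. The median of these genes was 0.15 on the log2 scale, against -0.12 for all genes. S100a6, which has roles in cell growth, stood at 3936 and 3590 CPM in 1V209-Cho-Lip and PBS neutrophils, and S100a11, a partner of annexins, stood at 2755 and 2169 CPM. S100a4 was lowest in ratio, at 4.83 and 12.2 CPM, from 57 and 30 UMIs. With TMM scaling 3 were that much higher, S100a9 and the sparsely counted S100a7a joining, and with the median of ratios 4, with S100a11. In the whole library 4 of 14 measured S100 genes, S100a8 and S100a9 among them, were at least 1.5-fold higher and 4 at least 1.5-fold lower. The shares of all genes measured there were 13.6% and 19.5%. Under either scaling 3 S100 genes were that much lower. The share of all genes was not counted under these scalings.

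Receptors and partners of calprotectin were mostly close between libraries in neutrophils. Of 11 such genes measured there, 1 was at least 1.5-fold higher and 1 at least 1.5-fold lower, beside 12.7% and 19.1% of all genes measured in the gate. Cd14, the lipopolysaccharide co-receptor that works with TLR4, stood at 2851 and 2339 CPM in 1V209-Cho-Lip and PBS neutrophils. Tlr4 stood at 304 and 317 CPM, the adaptor gene Myd88 at 220 and 172 CPM, and the adhesion molecule gene Alcam at 576 and 594 CPM. None of these 4 differed by 1.5-fold between libraries, although Myd88 reached that size under TMM or median-of-ratios scaling.

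Ager, which encodes RAGE, was the gene counted higher, at 34.7 and 17.1 CPM in neutrophils. Its highest gate was AT1, the flat gas-exchange epithelium known for RAGE, with 14257 and 18806 CPM after 1V209-Cho-Lip and PBS, so its neutrophil counts lie far below its source. The part of free RNA in them was not tested. Cd69, an early activation marker, was the gene counted lower, at 16.7 and 25.3 CPM, a size it no longer reached under TMM or median-of-ratios scaling. In the whole library 5 of the 11 genes were at least 1.5-fold higher and 1 at least 1.5-fold lower, beside 13.6% and 19.5% of all genes measured, Cd14 having the highest ratio, 3.32 (3.26 to 3.38), and Cd69 the lowest, 0.479 (0.455 to 0.505).

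The list of transcription factors tied to these genes or to granulocytes held 8 genes measured in neutrophils. Of these, 3 were at least 1.5-fold higher and 1 at least 1.5-fold lower, beside 12.7% and 19.1% of all genes measured there, and their median was 0.09 on the log2 scale. Cebpd, a C/EBP factor of acute responses, stood at 792 CPM in 1V209-Cho-Lip neutrophils and 54.2 CPM in PBS neutrophils, a ratio of 14.6 (12.3 to 17.5). This was not particular to neutrophils: the whole-library ratio was 22.5 (21.3 to 23.8), and Cebpd was higher in every other gate. Ratios there ran from 4.57 in alveolar macrophages to 35.2 (11.5 to 176) in B cells, and airway epithelial cells had 73 and 0 UMIs. The B cell ratio rests on 58 and 3 UMIs, and the part of free RNA in such low counts was not tested. Spi1, which encodes PU.1, stood at 1130 and 693 CPM, for a ratio of 1.63 (1.55 to 1.72). Stat3, at 409 and 400 CPM, and Irf7, an interferon regulator downstream of TLR7, at 272 and 268 CPM, were nearly level.

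Cebpa, the granulocyte lineage factor, had the lowest ratio, 0.623 (0.326 to 1.27), from 39 and 13 UMIs, an interval that includes 1, and did not reach 1.5-fold under TMM or median-of-ratios scaling. Hif1a, the third factor counted as higher, stood at 286 and 159 CPM. In classical monocytes 4 of the 8 factors were at least 1.5-fold higher and 0 lower, with Cebpd at 152 and 16.2 CPM after 1V209-Cho-Lip and PBS, beside 11.9% and 8.75% of all genes measured in that gate.

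The NADPH oxidase, which makes superoxide in phagocytes and is bound by calprotectin in human neutrophils, showed no gene at least 1.5-fold higher among its 6 measured in neutrophils, and 1 that much lower, beside 12.7% and 19.1% of all genes measured there. Ncf1, which encodes the p47phox subunit, was that gene, at 284 and 513 CPM in 1V209-Cho-Lip and PBS neutrophils, a ratio of 0.554 (0.519 to 0.591). Rac2 stood at 1326 and 1092 CPM, Cyba at 1048 and 1216 CPM and Ncf4 at 661 and 535 CPM.

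Over the 26 points given by 13 gates in 2 libraries, the genes most like the subunits were other neutrophil genes. Likeness was the Pearson correlation of log2 of CPM plus 1 over 12365 genes with at least 200 UMIs, and points of 1 library share its free RNA. Ngp and Retnlg, named below, are markers that define the neutrophil gate, so their high level at its points was set by the gating. S100a8 was followed by S100a9 at 0.976, the cystatin-family gene Stfa2l1 at 0.968, Ngp at 0.963, Cstdc5 at 0.952 and Nlrp12 at 0.950. S100a9 was followed by Stfa2l1 at 0.977, S100a8, Ngp at 0.959, Retnlg at 0.954 and Cstdc5 at 0.953. Among these, Cstdc5 stood at 2007 CPM in 1V209-Cho-Lip neutrophils and 244 CPM in PBS neutrophils, and Stfa2l1 at 1889 and 655 CPM, while Retnlg stood at 5608 and 4946 CPM.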

How the data were processed

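Both libraries were 10x Genomics single-cell RNA-seq of pooled lung, 1 library per group of 3 mice. The deposited files hold raw UMI counts per gene and barcode, made with Cell Ranger 9.0.1, per the file headers, on mm10, per the submitters' processing notes; their gene annotation is not given in the sources used here. Barcodes numbered 13740 and 14622, and 13720 and 14560 passed 500 UMIs, 200 genes and at most 20% mitochondrial UMIs. Scrublet in Scanpy 1.11.5, at an expected rate of 0.8% per 1000 barcodes, then removed 1392 (10.1%) and 1918 (13.1%). Median depth of kept cells was 2510 and 2197 UMIs.

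Counts were summed per library and gate. Sums carry exact Poisson, shares exact Clopper-Pearson and ratios exact conditional binomial intervals at 95%. For levels at equal depth, cells were thinned to 1000 UMIs, which left out 957 and 1356 shallower cells. A gate counted as above the free-RNA level where its thinned interval lay above those of the T cell, B cell and blood endothelial gates. The ratio interval was run on simulated sums drawn as Poisson counts, which is what it assumes. That run checks the calculation and says nothing of spread between cells. Across neutrophils of the 1V209-Cho-Lip library the variance of S100a8 UMIs was 208 times the mean. The members, marker lists and gene lists were chosen with earlier results of these data known; the Hmga2 and Crabp2 list came from them.

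Named genes were, in each list, those with the 4 most UMIs and the highest and lowest ratio among genes with at least 20 UMIs over both libraries, and the 5 genes most alike over gates. The values of 1 gene under this rule are not reported here. The alternatives tried were cell filters, doublets, marker minimums of 2 and 4, clusters made without S100a8 and S100a9 (Leiden resolution 2, 30 components, 15 neighbours), scaling, denominators and thinning. The tools were scipy 1.17.1, numpy 2.4.6 and pandas 2.3.3 under Python 3.11.15.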

Additional observations from a re-analysis of the deposited data

How the results depend on the processing

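No paired analysis was possible because each group was 1 library. Of 202 recomputed values, 125 stayed inside the counting interval of the reported value, 77 moved outside it, 20 of them by over 1.5 times; with so many UMIs those intervals are narrow. Of the ratios between libraries among these values, 0 changed direction. The neutrophil ratios within depth bins are not among them. At 500 to 1000 UMIs those were 0.954 (0.903 to 1.01) for S100a8 and 0.938 (0.905 to 0.973) for S100a9. At 4000 to 8000 UMIs they were 0.986 (0.960 to 1.01) and 1.10 (1.07 to 1.12). Both genes lay above 1 at 1000 to 2000 and at 2000 to 4000 UMIs. In each pair of values below the first is for S100a8 and the second for S100a9, unless libraries are named.

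For the whole library, the ratio of 1V209-Cho-Lip over PBS was 7.75 and 6.67 with at least 1000 UMIs and at most 10% mitochondrial UMIs, 8.53 and 7.27 with TMM, 8.34 and 7.11 with the median of ratios, 7.56 and 6.44 with S100a8, S100a9 and Rn18s-rs5 left out of the total, and 4.56 and 3.92 as a mean over cells. In neutrophils these settings gave 1.58 and 1.34, 1.91 and 1.61, 1.93 and 1.62, 1.66 and 1.39, and 1.56 and 1.34; called doublets kept gave 1.66 and 1.40, and thinning 1.49 and 1.30.

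The percent of UMIs in neutrophils under the stricter filter was 92.6 and 92.7 in the 1V209-Cho-Lip library and 90.9 for S100a9 in the PBS library. With doublets kept it was 81.6 and 81.8 in the 1V209-Cho-Lip library and 73.4 and 74.7 in the PBS library, with clusters 90.1 and 89.6, and 87.2 and 88.2, and with at least 4 markers 89.5 and 90.6 in the PBS library.

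Free-RNA gates changed most with clusters, where UMIs per cell were 2.68 and 4.52 in the 1V209-Cho-Lip library and 0.175 and 0.307 in the PBS library, with ratios of 15.4 and 14.7; the cause was not tested. Doublets kept gave 0.121 and 0.223 in the PBS library, and ratios of 6.97 and 6.01. Without cells of 10 or more UMIs of the member, levels were 0.749 and 1.18 in the 1V209-Cho-Lip library and 0.0860 and 0.160 in the PBS library, with ratios of 8.71 and 7.37. Without any neutrophil marker UMI they were 0.764 and 1.16 in the 1V209-Cho-Lip library and 0.0940 and 0.168 in the PBS library, and without a Retnlg, Mmp9 or Cxcr2 UMI 0.776 and 1.24, and 0.175 for S100a9 in the PBS library.

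The S100a8 to S100a9 ratio of neutrophils was 0.631 by clusters in the 1V209-Cho-Lip library and 0.534 under the stricter filter in the PBS library. In the free-RNA gates of the 1V209-Cho-Lip library it was 0.593 by clusters and 0.657 without neutrophil marker UMIs. In classical monocytes it was 0.853 and 0.866 after 1V209-Cho-Lip and PBS by clusters, 0.556 and 0.400 without neutrophil marker UMIs (10 and 45 cells), which put it below the neutrophil values, and 1.24 in the 1V209-Cho-Lip library without cells of 10 or more S100a8 UMIs. In PBS alveolar macrophages it was 0.780 by clusters and 1.17 without neutrophil marker UMIs, against 1.76 by gates. Cells without a Retnlg, Mmp9 or Cxcr2 UMI and the S100a8 UMI limit for that ratio were chosen after seeing the data.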
